A study of Rattus norvegicus with 12 samples.

Results

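Receptors that bind antibody or lipid on myeloid cells, together with the adapters and the kinase they share, were followed across 12 RNA sequencing libraries of rat brain. The set held 7 genes, Fcer1g, Tyrobp, Fcgr1a, Fcgr3a, Fcgr2b, Trem2 and Syk, taken by gene name from a table of 34525 genes, where each name had 1 row. The series deals with chronic orofacial pain. Its 4 groups of 3 libraries each were thalamus CFA, thalamus saline, RVM CFA and RVM saline. RVM is the rostral ventral medulla, a brainstem region from which fibres descend to modulate pain transmission, and the thalamus relays sensory input to the cortex. CFA stands in the labels as letters only, which in work on rodent pain are the common short form of complete Freund's adjuvant, an emulsion used to cause inflammation, and saline was 0.9% sodium chloride. The labels give all rats no strain, sex, age or genotype, and they name no dose, injection site or time for either treatment. Nor do they say that libraries of a group came from separate animals, so p-values here measure only the spread between these samples.

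Neither receptors of this family nor their partners act alone. Fcer1g (the FcR gamma chain) and Tyrobp (DAP12) are short transmembrane adapters that bind no ligand and carry an immunoreceptor tyrosine-based activation motif, the ITAM. When a receptor is engaged, Src family kinases phosphorylate the ITAM and the kinase Syk docks there and passes the signal on. The Fc receptors encoded by Fcgr1a and Fcgr3a bind the constant part of immunoglobulin G and use the FcR gamma chain, Trem2 binds lipids and lipoproteins and uses DAP12, and Fcgr2b carries an inhibitory motif (ITIM) that opposes the ITAM. In the brain these genes are known mainly from microglia and border macrophages, and from monocytes and neutrophils when these enter.

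In the table the adapters are Fcer1g, listed as ENSRNOG00000024159 on chromosome 13 from 89601896 to 89606326, and Tyrobp, ENSRNOG00000020845 on chromosome 1 from 88875375 to 88879303. Fcgr1a is ENSRNOG00000021199 on chromosome 2 from 198430530 to 198458041. Fcgr3a is ENSRNOG00000024382 on chromosome 13 from 89385859 to 89396051 on the plus strand. Fcgr2b, ENSRNOG00000046452, is listed on the minus strand of chromosome 13 from 89327794 to 89433815, a span of 106022 bases that contains all of Fcgr3a. The kit is not stated to keep strand, so reads of Fcgr3a and Fcgr2b in shared bases cannot be told apart, and no other pair of the 7 overlaps. Trem2 is ENSRNOG00000013578 on chromosome 9 from 14611561 to 14618013 and Syk is ENSRNOG00000012160 on chromosome 17 from 12614311 to 12669573. No source used here names the build behind these coordinates, and the values sum over a whole gene, so exons, introns and untranslated regions were not told apart. In RefSeq (GRCr8) the Fcgr3a entry has the synonyms Fcgr4 and CD16-2, and its neighbour Fcgr2a, a close copy that carries Fcgr3a among its older names, matched no name in the table and was not analysed here. The row named Fcgr3a was matched by name only, so whether it holds today's Fcgr3a or today's Fcgr2a is not settled. The Fcgr3a promoter printed below is that of the RefSeq entry with this name. How reads were split between the Fc gamma receptor copies is uncertain.

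Promoters of the family are shown because PU.1, encoded by Spi1, is a transcription factor of myeloid genes and its own level is given among the results. RefSeq's promoter table (build GRCr8, 250 bases before to 50 after the gene start) matched 3 of the 7 genes, Fcgr3a at chr13:85782386-85782685 on the plus strand, Trem2 at chr9:20151730-20152029 and Syk at chr17:12813224-12813523, both on the minus strand, while Fcer1g, Tyrobp, Fcgr1a and Fcgr2b had no entry. Each sequence runs 5′ to 3′ along the gene, and capitals mark the PU.1 core GAGGAA or its reverse complement TTCCTC.
Fcgr3a: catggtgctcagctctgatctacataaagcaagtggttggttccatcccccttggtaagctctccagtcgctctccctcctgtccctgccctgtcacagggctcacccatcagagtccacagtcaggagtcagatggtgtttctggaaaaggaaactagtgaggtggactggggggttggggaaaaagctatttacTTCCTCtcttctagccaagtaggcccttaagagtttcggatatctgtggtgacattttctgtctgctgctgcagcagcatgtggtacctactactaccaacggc
Trem2: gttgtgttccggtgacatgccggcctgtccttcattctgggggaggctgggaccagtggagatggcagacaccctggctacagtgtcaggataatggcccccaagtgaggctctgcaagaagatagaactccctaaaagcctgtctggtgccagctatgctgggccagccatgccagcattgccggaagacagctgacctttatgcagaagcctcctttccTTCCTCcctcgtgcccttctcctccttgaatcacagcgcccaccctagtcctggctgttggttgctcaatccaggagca
Syk: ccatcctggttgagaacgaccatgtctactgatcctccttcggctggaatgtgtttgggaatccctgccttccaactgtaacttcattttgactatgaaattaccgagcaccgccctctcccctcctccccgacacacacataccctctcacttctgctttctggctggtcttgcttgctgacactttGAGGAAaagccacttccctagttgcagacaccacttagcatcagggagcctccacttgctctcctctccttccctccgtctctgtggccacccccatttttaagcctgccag
The 3 windows hold 1 PU.1 core each, whose first base lies at -54 from the gene start in Fcgr3a, at -29 in Trem2 and at -62 in Syk. The same 6 letters, on either strand, are in 27.6% of 33469 promoters of this length. An AP-1 match (TGANTCA on either strand, in 7.33% of promoters) begins at -3 in Trem2 and is in neither of the other windows. C/EBP matches (TTNNGNAA on either strand, in 41.3% of promoters) begin at -110 and -74 in Fcgr3a, at 33 in Trem2, and at -197 and -64 in Syk, where the last shares bases with the PU.1 core. The interferon regulatory factor pattern of GAAA, NN and GAAA in a row (either strand, in 3.92% of promoters) begins at -105 in Fcgr3a alone of the 3 and shares bases with its C/EBP match at -110. A match is a run of letters and was not tested as a binding site.

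The libraries held 14.94 to 19.24 M reads recovered from the table, and the 7 genes had between 28 and 1985 reads in a library. Levels below are FPKM, which divides fragments by gene length and library size, so genes may be compared with each other, and log2 changes come from log2(FPKM + 1) values, which understates changes of low genes. Markers matched the tissue labels, with 10 hindbrain genes summing to 125 to 170 FPKM in RVM and at most 1.24 FPKM in thalamus. The extraction text speaks of retinas, whereas 10 photoreceptor and retina genes summed to at most 2.09 FPKM. RVM CFA library 2 was the lowest RVM CFA library for each of the 7 genes. Thalamus CFA libraries 1 and 2 held 10400 and 2490 FPKM of 10 choroid plexus genes, against at most 29.5 FPKM in every other library. Tests of the 7 genes and the main ratios are therefore also given without these libraries.

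All 7 genes were higher in the thalamus of CFA rats, from 2.66-fold for Trem2 to 20.4-fold for Fcgr3a by mean FPKM, and no CFA library overlapped a saline library. In the RVM the means of all 7 were 1.95-fold to 8.12-fold higher with CFA, but the 3 CFA libraries differed so widely that none passed the test over all genes. The plot of levels by library shows each value. A bulk sample does not tell a change in the number of cells that carry a transcript from a change in transcript per cell.

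**Figure D1:**
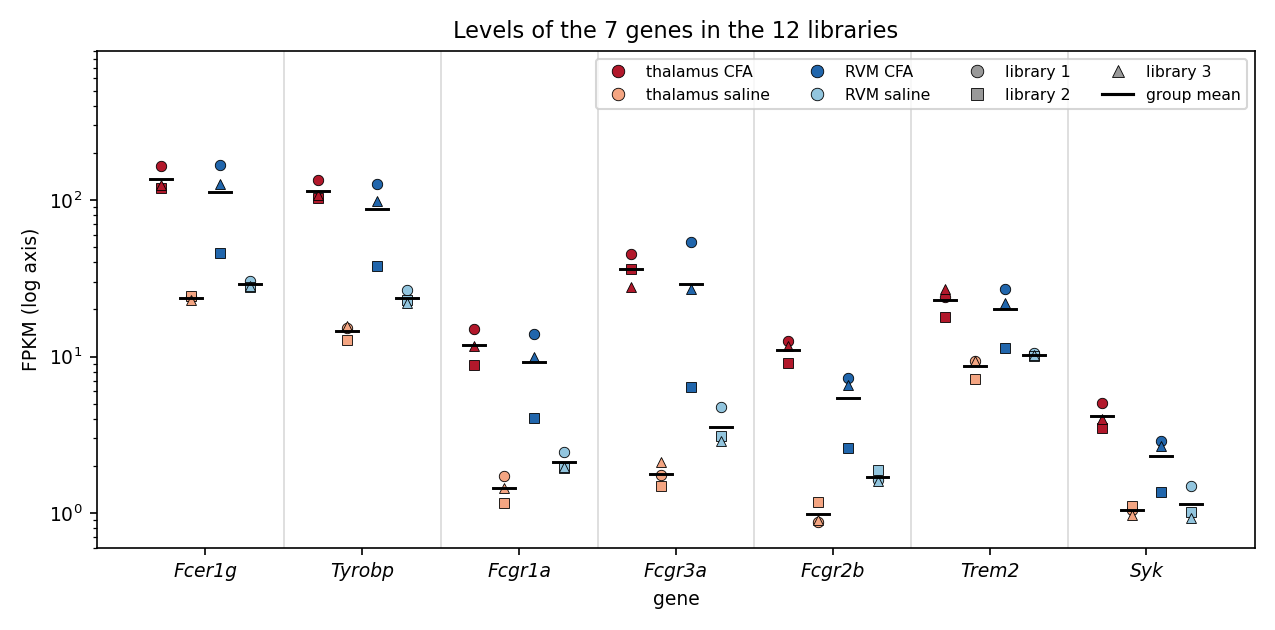
FPKM (log axis) of the 7 genes in each of the 12 libraries, with symbols for the library number, colours for the group and a black bar for the group mean of 3. The thalamus CFA libraries lie above all thalamus saline libraries for each gene, while RVM CFA library 2 (square) is the lowest RVM CFA library for each gene and lies within the RVM saline range for Syk.

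Of the adapters, Fcer1g was the most abundant of the 7 in every group. It stood at 166, 120 and 125 FPKM in thalamus CFA libraries 1, 2 and 3, against 23.9, 24.3 and 23.0 FPKM in thalamus saline. Every CFA library was at least 5.06 times the saline mean, and the log2 change was 2.46 ± 0.14 (SE, limma adjusted p = 0.000615). Tyrobp, the adapter of Trem2, was at 134, 103 and 108 FPKM in thalamus CFA and at 15.3, 12.7 and 15.6 FPKM in thalamus saline. Its groups were again far apart, with a log2 change of 2.89 ± 0.14 and the smallest adjusted p of the 7 by limma, 0.000484.

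The activating Fc gamma receptors rose too. Fcgr1a, the high-affinity receptor for monomeric immunoglobulin G, was at 14.95, 8.81 and 11.7 FPKM in thalamus CFA and at 1.73, 1.16 and 1.44 FPKM in thalamus saline. The lowest CFA library exceeded the highest saline library, and the log2 change was 2.37 ± 0.20 (limma adjusted p = 0.00211). Fcgr3a was at 45.1, 36.2 and 27.9 FPKM in thalamus CFA and at 1.76, 1.49 and 2.12 FPKM in thalamus saline. This was the largest change of the 7, with a log2 change of 3.73 ± 0.19 (limma adjusted p = 0.000541), and it rests on 623 to 1151 reads in CFA libraries against 32 to 47 reads in saline libraries.

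The inhibitory receptor moved the same way. Fcgr2b was at 12.6, 9.16 and 11.7 FPKM in thalamus CFA and at 0.883, 1.18 and 0.898 FPKM in thalamus saline, a log2 change of 2.60 ± 0.15 (limma adjusted p = 0.000646). All 3 CFA libraries lay far above saline. The mean of 0.987 ± 0.167 FPKM in saline (SD, n = 3) is below the level of 1 FPKM that a gene had to reach on average over both groups to be tested, so Fcgr2b was tested through its CFA level. With no such filter it passed as well, as did the other 6.

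Trem2 and Syk changed least in the thalamus on the log2 scale. Trem2 was at 24.1, 18.003 and 27.2 FPKM in CFA and at 9.43, 7.22 and 9.40 FPKM in saline, a log2 change of 1.30 ± 0.18 (limma adjusted p = 0.0118). Groups did not overlap, but the call was narrow, with adjusted p = 0.0506 without saline library 2 and 0.0512 without saline library 3 (log2 1.19 and 1.36, limma). Syk, the kinase that both adapters recruit, was at 5.07, 3.49 and 3.97 FPKM in CFA and at 1.04, 1.11 and 0.966 FPKM in saline. Its log2 change was 1.33 ± 0.16 (limma adjusted p = 0.00674), again with no overlap.

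So 7 of 7 genes passed as higher in the thalamus, where 3.84% of the 14722 genes tested did, and the median log2 change of the 7 was 2.46 against -0.08 for all genes. Groups without overlap and higher in CFA were found for 12.2% of all genes. Leaving out any 1 library ended no call except that of Trem2. Without CFA libraries 1 and 2 together, a single CFA library was set against 3 saline libraries and assumed to vary as they do, and 4 of the 7 passed, where 0.448% of all genes were called higher. The lost calls were Fcgr1a (log2 2.38, limma adjusted p = 0.0521), Trem2 (1.55, 0.0864) and Syk (1.29, 0.133), whose changes were close to or above those of the full fit.

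RVM values ran in the same direction with wider spread. Fcer1g was at 167, 45.8 and 127 FPKM in RVM CFA libraries 1, 2 and 3, against 30.5, 27.8 and 28.4 FPKM in RVM saline. Tyrobp was at 127, 38.1 and 98.7 FPKM in RVM CFA, against 26.5, 22.9 and 22.0 FPKM in RVM saline. For both adapters all CFA libraries were above saline, with libraries 1 and 3 close to the thalamus CFA levels and library 2 only 1.58 and 1.599 times the saline mean. Their log2 changes were 1.75 ± 0.43 and 1.68 ± 0.41, each with a limma adjusted p = 0.242.

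Among the receptors Fcgr1a was at 13.9, 4.04 and 9.98 FPKM in RVM CFA, against 2.45, 1.95 and 1.96 FPKM in RVM saline. Fcgr3a was at 53.6, 6.41 and 27.0 FPKM in RVM CFA, against 4.74, 3.10 and 2.88 FPKM in RVM saline, and library 1 held 15.01 times and library 2 held 1.79 times the saline mean. Neither gene overlapped between groups, and the log2 changes were 1.59 ± 0.37 (limma adjusted p = 0.242) and 2.32 ± 0.67 (0.254). The inhibitory Fcgr2b was at 7.26, 2.59 and 6.54 FPKM in RVM CFA, against 1.62, 1.88 and 1.62 FPKM in RVM saline. That is a log2 change of 1.17 ± 0.31 (limma adjusted p = 0.242) with no overlap.

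Trem2 was at 27.0, 11.4 and 21.9 FPKM in RVM CFA, against 10.6, 10.1 and 10.2 FPKM in RVM saline, so library 2 sat just above saline (log2 0.82 ± 0.28, limma adjusted p = 0.281). Syk was at 2.87, 1.36 and 2.68 FPKM in RVM CFA, against 1.499, 1.01 and 0.931 FPKM in RVM saline. Its groups overlapped, as library 2 was below the highest saline library (log2 0.60 ± 0.22, limma adjusted p = 0.308). By limma 0 of the 7 passed in the RVM, as did 0% of the 14289 genes tested, and limma-voom on the recovered reads also called 0 genes. At an unadjusted p below 0.05 all 7 were higher, against 5.93% of all genes. CFA was above saline without overlap for 6 of the 7, against 7.27% of all genes, and the median log2 change was 1.59 for the 7 and -0.02 for all genes.

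Leaving out any other single RVM library called 0 of the 7. The calls depended on library 2, the lowest RVM CFA library for all 7 genes. Leaving it out therefore raises the CFA means by construction, and the calls that follow are no independent support. Without it 6 of the 7 passed as higher, where 2.78% of 14264 genes did, with log2 changes of 2.30 for Fcer1g, 2.19 for Tyrobp, 2.04 for Fcgr1a, 3.12 for Fcgr3a, 1.55 for Fcgr2b and 1.17 for Trem2 and limma adjusted p-values between 0.00164 for Fcer1g and 0.00636 for Fcgr3a. Syk missed (0.82, limma adjusted p = 0.0636). In RVM CFA libraries 1, 2 and 3 the sum of 12 homeostatic microglia genes was 347, 199 and 307 FPKM. The sum of 11 monocyte and neutrophil genes was 95.5, 18.1 and 72 FPKM in the same libraries. Much of the latter was the single gene Plac8, at 6.83 to 80.3 FPKM in RVM CFA. S100a8 stayed at 2.17 to 2.35 FPKM there, and Csf3r ran from 1.05 to 3.97 FPKM.

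**Figure D2:**
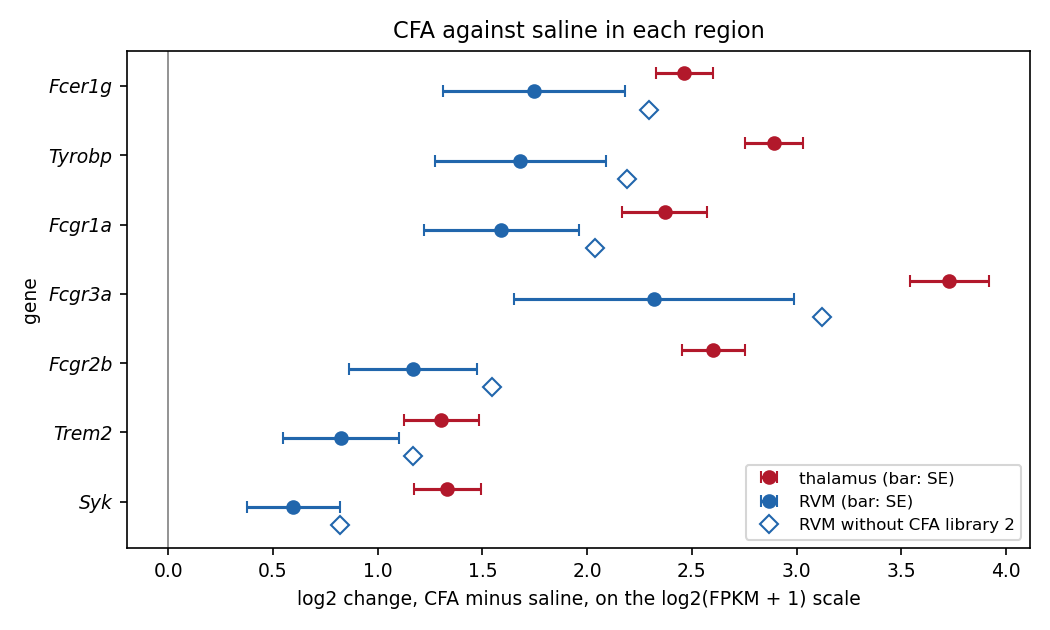
Log2 change between CFA and saline (log2(FPKM + 1) scale) of each gene in the thalamus (red) and the RVM (blue), with SE bars, and in the RVM without CFA library 2 (open diamonds). Every point is above 0, and in the RVM the changes without library 2 are larger, for instance 3.12 against 2.32 for Fcgr3a.

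Thalamus changes were numerically larger than RVM changes for each of the 7, but the difference did not pass. The difference of log2 changes was largest for Fcgr2b, at 1.44 ± 0.37 (thalamus minus RVM, unadjusted p = 0.00277, limma adjusted p = 0.333) and for Fcgr3a, at 1.41 ± 0.78 (adjusted p = 0.496). It was 1.21 ± 0.48 for Tyrobp (0.403), 0.78 ± 0.46 for Fcgr1a (0.511), 0.73 ± 0.28 for Syk (0.393), 0.72 ± 0.51 for Fcer1g (0.564) and 0.48 ± 0.36 for Trem2 (0.586), all limma adjusted p. By limma 0 of the 7 and 0% of 13738 genes were called, 3 of the 7 (Fcgr2b, Syk and Tyrobp) and 11.4% of all genes had an unadjusted p below 0.05, and limma-voom called 0 genes. Without RVM CFA library 2 the difference for Fcer1g was 0.17 and for Trem2 0.14, so RVM and thalamus changes were then closer, and for Fcgr2b it was 1.06.

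By ratio of mean FPKM Fcgr3a led with 20.4-fold in the thalamus and 8.12-fold in the RVM, and Trem2 was lowest with 2.66-fold and 1.95-fold. In the thalamus Fcgr2b came next with 11.3-fold, then Fcgr1a with 8.19-fold, Tyrobp with 7.88-fold, Fcer1g with 5.77-fold and Syk with 4.02-fold. In the RVM Fcgr1a came next with 4.39-fold, then Fcer1g with 3.92-fold, Tyrobp with 3.70-fold, Fcgr2b with 3.20-fold and Syk with 2.01-fold. These ratios have no pseudocount, and on the log2(FPKM + 1) scale Syk, not Trem2, had the smallest RVM change. Library 2 was the lowest RVM CFA library for all 7 genes and library 1 the highest, while in the thalamus library 1 was the highest for all but Trem2, which peaked in library 3.

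**Figure D3:**
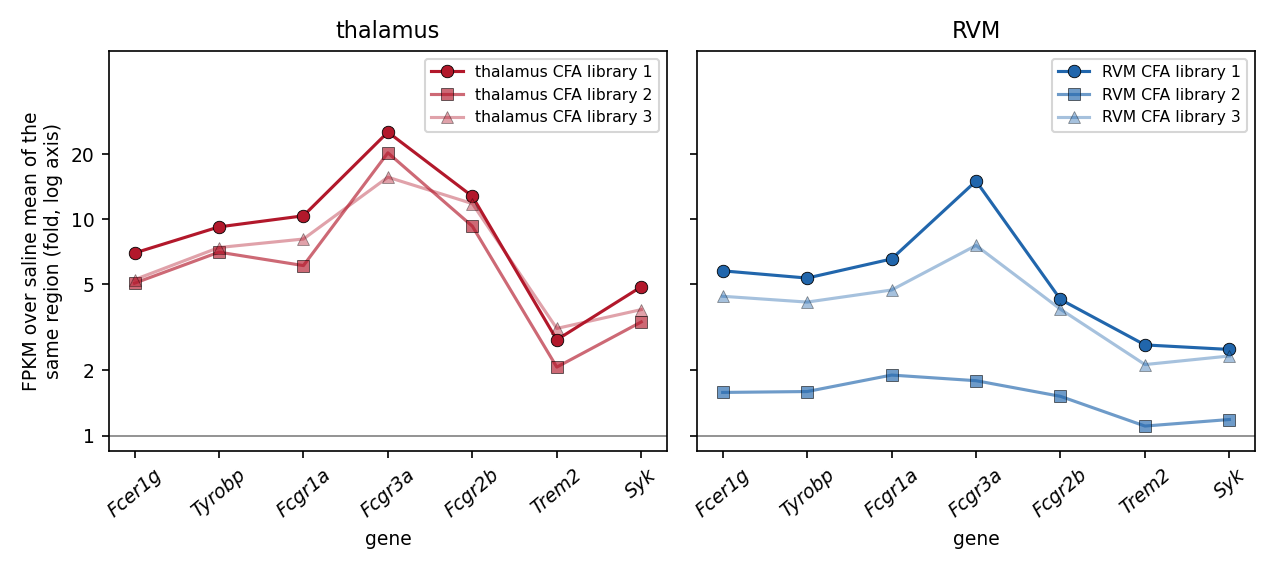
FPKM of each CFA library over the saline mean of its region (fold, log axis), for the thalamus on the left and the RVM on the right. The profile over genes peaks at Fcgr3a in 5 of 6 libraries while in RVM CFA library 2 the highest gene, Fcgr1a, stands at 1.90-fold.

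The order of levels also shifted. With CFA it was Fcer1g, Tyrobp, Fcgr3a, Trem2, Fcgr1a, Fcgr2b and Syk in both regions. In saline Trem2 stood above Fcgr3a in both regions, at 8.68 ± 1.27 against 1.79 ± 0.316 FPKM in the thalamus and at 10.3 ± 0.253 against 3.57 ± 1.02 FPKM in the RVM (SD, n = 3). Neighbours in the order overlapped in thalamus CFA for Fcer1g with Tyrobp and for Fcgr1a with Fcgr2b, and in thalamus saline for Fcgr3a with Fcgr1a and for Syk with Fcgr2b, which was the lowest there. All neighbours overlapped in RVM CFA, where the SD reached 81.6% of the mean for Fcgr3a, and none did in RVM saline. Overlap here compares ranges over the libraries of a group. Within each RVM CFA library the order held, except that Fcgr3a was below Trem2 in library 2 (6.41 against 11.4 FPKM).

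Ratios within the family were then formed in each library. Trem2 relative to its adapter Tyrobp ranged between 0.176 and 0.252 in thalamus CFA, against 0.568 to 0.615 in thalamus saline, a log2 difference of -1.57 without overlap. The RVM showed the same direction, with 0.212 to 0.299 in CFA and 0.398 to 0.462 in saline and a log2 difference of -0.84 without overlap. With 3 libraries against 3 an exact two-sided permutation test cannot go below p = 0.1, which is the value in both regions. Fcer1g relative to Tyrobp was between 1.16 and 1.23 in thalamus CFA, against 1.47 to 1.91 in thalamus saline (log2 difference -0.46, exact p = 0.1), whereas in the RVM it was 1.20 to 1.31 in CFA and 1.15 to 1.29 in saline, with overlap (exact p = 0.4).

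Activating over inhibitory Fc gamma receptor levels, the sum of Fcgr1a and Fcgr3a over Fcgr2b, lay between 3.40 and 4.91 in thalamus CFA, against 2.24 to 3.96 in thalamus saline. They were 4.03 to 9.30 in RVM CFA and 2.68 to 4.44 in RVM saline. Both pairs overlapped, with log2 differences of 0.40 (exact permutation p = 0.3) and 0.86 (exact permutation p = 0.2). Without thalamus saline library 2 the thalamus difference was 0.12, and without CFA libraries 1 and 2 together 0.055. Without RVM CFA library 1 the RVM difference was 0.54. How reads of Fcgr3a and Fcgr2b were split is uncertain, as stated above, and so are these ratios. The ligand-binding activating receptors Trem2, Fcgr1a and Fcgr3a over the summed adapters gave 0.281 to 0.287 in thalamus CFA, against 0.266 to 0.336 in thalamus saline, and 0.260 to 0.321 in RVM CFA and 0.298 to 0.311 in RVM saline, with exact permutation p = 0.4 in each region. The log2 difference was -0.12 in the thalamus and -0.115 in the RVM, and it was -0.23 without thalamus saline library 2, -0.062 without thalamus saline library 3, -0.22 without RVM CFA library 1, -0.064 without RVM CFA library 2 and -0.065 without RVM CFA library 3.

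Summed homeostatic microglia genes were at 290 to 324 FPKM in thalamus CFA, against 156 to 178 FPKM in thalamus saline, and each gene was therefore set against 11 of them (including Cx3cr1, P2ry12, P2ry13, Tmem119, Csf1r, Sall1, Gpr34, Selplg, Olfml3 and Slc2a5) by their geometric mean in the same library. In the thalamus all 7 ratios were higher in CFA with no overlap, by log2 3.43 for Fcgr3a, 2.59 for Fcgr2b, 2.11 for Fcgr1a, 2.07 for Tyrobp, 1.61 for Fcer1g, 1.08 for Syk and 0.49 for Trem2 (exact permutation p = 0.1 each, the smallest possible). In the RVM the ratio was higher without overlap by 1.97 for Fcgr3a, 1.34 for Fcgr1a, 1.15 for Fcer1g, 1.09 for Tyrobp and 0.92 for Fcgr2b (exact permutation p = 0.1 each). It overlapped for Syk, with a difference of 0.34 (exact permutation p = 0.2), and for Trem2, with 0.25 (exact permutation p = 0.3). In all, 22 ratio comparisons were made, and none can pass a threshold of 0.05 in this design. The share of all genes whose ratio to these homeostatic genes would lie apart between groups was not computed. Without CFA libraries 1 and 2 the thalamus differences over homeostatic genes ran from 0.77 for Trem2 to 3.099 for Fcgr3a, and without RVM CFA library 2 those in the RVM ran from 0.38 for Trem2 to 2.59 for Fcgr3a. Those of Trem2 over Tyrobp were then -1.24 and -0.997.

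**Figure D4:**
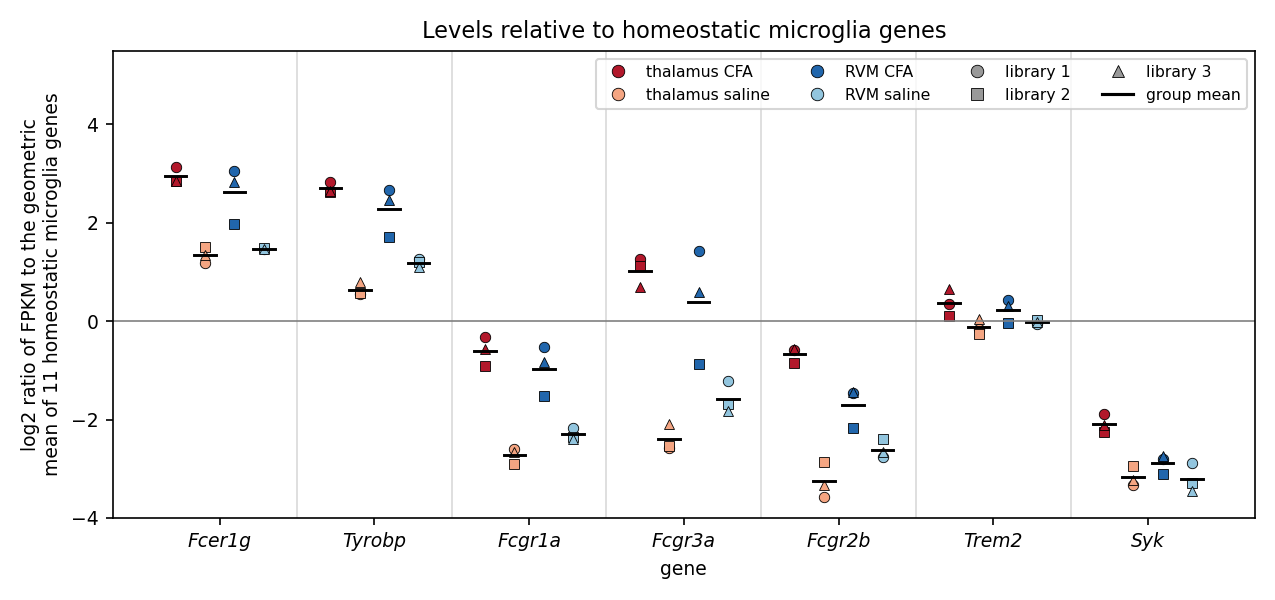
Log2 ratio of each gene's FPKM to the geometric mean of 11 homeostatic microglia genes in the same library, by group, with a black bar for the mean of 3. In thalamus CFA against thalamus saline Trem2 differs by 0.49 and Fcgr3a by 3.43.

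Those homeostatic genes differed among themselves. In the thalamus 5 of 11 rose and 0 fell (median log2 0.82), with the growth factor receptor gene Csf1r at 88 ± 9.31 FPKM in CFA and 27.3 ± 2.19 FPKM in saline (SD, n = 3 each) and Cx3cr1, the fractalkine receptor, at 38.5 ± 3.97 and 16.2 ± 1.19 FPKM (limma adjusted p = 0.000941 and 0.00275). P2ry12 lost its call without saline library 3 (log2 1.02 in the full fit), and Slc2a5 lost it without CFA library 1, CFA library 2 or saline library 2 (0.96). Tmem119 was at 15.6 ± 4.66 FPKM in CFA and 13.5 ± 1.33 FPKM in saline and did not pass.

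Markers of entering and neighbouring cells also varied between groups. The 11 monocyte and neutrophil genes summed to 91.7, 74.7 and 73.1 FPKM in thalamus CFA, against 7.13, 5.76 and 6.66 FPKM in thalamus saline, and to 18.1 to 95.5 FPKM in RVM CFA, against 8.74 to 9.56 FPKM in RVM saline. Much of the sums with CFA was Plac8, at 35.4 to 56.5 FPKM in thalamus CFA and 6.83 to 80.3 FPKM in RVM CFA. Of the others S100a9 reached 18.7 FPKM, Mpo at most 0.0599 FPKM and Elane at most 0.163 FPKM. Elane was at 0 in the other 3 groups outside thalamus CFA. The 7 border macrophage genes measured summed to 15.7 to 38.3 FPKM in thalamus CFA, against 7.45 to 9.59 FPKM in thalamus saline, and to 5.47 to 11.4 FPKM in RVM CFA and 6.35 to 7.64 FPKM in RVM saline. Pf4, also a platelet gene, made up much of the thalamus sum, with a median of 18.5 FPKM in CFA and 1.9 FPKM in saline. Thalamus medians in CFA and saline were 3.3 and 0.73 FPKM for Mrc1 and 0.678 and 0.283 FPKM for Cd163. They were 1.69 and 0.0282 FPKM for Ms4a7 and 0.688 and 0.0521 FPKM for Siglec1. Lower with CFA were F13a1, with medians of 2.85 and 4.94 FPKM, and Lyve1, with 1.03 and 1.25 FPKM. Of the 4 tested genes of the list 1 was called. The part of these cells in the results was not tested.

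Lymphoid and mast cells carry some of the same genes. The 9 T cell genes measured summed to 15.8 to 71.3 FPKM in thalamus CFA, against 2.59 to 6.85 FPKM in thalamus saline, and to 3.97 to 50.7 FPKM in RVM CFA and 3.05 to 4.69 FPKM in RVM saline, and their part was not tested. Cd4, which rat macrophages also express, reached 54 FPKM in thalamus CFA and 47.2 FPKM in RVM CFA, whereas Cd3e, a chain of the T cell receptor complex, was at most 1.97 FPKM in thalamus CFA and 0.0416 FPKM in thalamus saline, and at most 0.407 FPKM in RVM CFA and 0.0478 FPKM in RVM saline. The 7 B cell genes measured summed to 7.74 to 22.9 FPKM in thalamus CFA, against 1.67 to 2.38 FPKM in thalamus saline, of which the antibody joining chain gene Jchain had a median of 9.93 FPKM in CFA and 1.43 FPKM in saline, while Ms4a1 stayed at or below 0.256 FPKM. For natural killer cells, which in humans carry a CD16 receptor, the 8 genes measured summed to 1.05 to 3.53 FPKM in thalamus CFA, against 0.323 to 6.07 FPKM in thalamus saline, and to 0.457 to 1.08 FPKM in RVM CFA and 0.098 to 0.926 FPKM in RVM saline. Of these the receptor gene Ncr1 was at most 0.137 FPKM in any library, and Gzmm reached 3.12 FPKM in thalamus saline. For mast cells, which use Fcer1g, the 9 genes summed to 7.21 to 13.7 FPKM in thalamus CFA, against 5.25 to 7.72 FPKM in thalamus saline. They summed to 7.7 to 10.8 FPKM in RVM CFA and 11.1 to 14 FPKM in RVM saline. Kit and Gata2 made up most of these sums, for instance 7.3 to 9.92 and 3.53 to 3.96 FPKM in RVM saline. Cpa3 was at most 0.0447 FPKM and Tpsb2 at 0 in RVM saline. In the thalamus Cpa3 ran from 0.131 to 0.564 FPKM in CFA and from 0.282 to 1.09 FPKM in saline. Tpsb2 reached 0.907 FPKM in thalamus CFA and 0.399 FPKM in thalamus saline, and Tpsab1 reached 0.481 and 0.866 FPKM. With Kit and Gata2 so large a part, the sums are no measure of mast cells. The mast cell receptor gene Fcer1a was at most 0.124 FPKM in the thalamus and 0 in every RVM library, and Hdc, for histamine synthesis, had medians of 1.42 FPKM in thalamus CFA and 0.587 FPKM in thalamus saline.

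Levels of tissue markers also differed between the thalamus groups. The 8 meningeal and mural genes summed to 269, 106 and 151 FPKM in thalamus CFA, against 115 to 127 FPKM in thalamus saline, with the collagen gene Col3a1 at 8.25 to 63.8 FPKM and 1.84 to 6.09 FPKM, and 0 of 8 passed. Gfap, an astrocyte filament gene, was at 364 to 936 FPKM in thalamus CFA and 79.3 to 155 FPKM in thalamus saline, and 1 of 8 astrocyte genes passed. The 10 thalamic neuron genes summed to 229, 688 and 563 FPKM in thalamus CFA, against 542, 1110 and 870 FPKM in thalamus saline (median log2 change -0.74), and the 10 general neuron genes to 1250 to 1810 FPKM, against 1730 to 2440 FPKM (-0.43), with all 20 log2 changes below 0 and 0 passing. Their part in the results was not tested. Of the thalamus CFA libraries, library 1 held the most choroid plexus transcripts and the highest levels of all but Trem2. Library 2 held 2490 FPKM and library 3 held 16.2 FPKM of choroid plexus genes. Fcer1g, Tyrobp, Fcgr1a, Fcgr2b, Trem2 and Syk were higher in library 3 than in library 2. Fcgr3a, at 45.1, 36.2 and 27.9 FPKM in libraries 1, 2 and 3, ran in the order of the choroid plexus sums. The part of choroid plexus in the results was not tested.

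Saline samples of the regions were then compared with each other. Tyrobp was at 14.6 ± 1.61 FPKM in thalamus saline and 23.8 ± 2.38 FPKM in RVM saline (SD, n = 3 each), a log2 difference of -0.67 ± 0.11 (SE, limma adjusted p = 0.00348). Fcer1g was at 23.7 ± 0.676 and 28.9 ± 1.42 FPKM in the same groups (log2 -0.28 ± 0.07, adjusted p = 0.0167 by limma). Fcgr3a was at 1.79 ± 0.316 and 3.57 ± 1.02 FPKM (log2 -0.70 ± 0.19, limma adjusted p = 0.0218), and Fcgr2b at 0.987 ± 0.167 and 1.70 ± 0.152 FPKM (log2 -0.45 ± 0.14, limma adjusted p = 0.0411). These 4 of 7 were lower in the thalamus, where 22.7% of the 14396 genes tested were called lower and 45.3% in either direction.

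Fcgr1a (log2 -0.36, limma adjusted p = 0.0955), Trem2 (-0.23, 0.14) and Syk (-0.07, 0.77) did not pass between the regions. The call of Tyrobp was lost in a single model of all 12 libraries (limma adjusted p = 0.133). On leaving out 1 library Fcgr2b lost its call without thalamus saline library 1 or 3 or any 1 RVM saline library, Fcer1g without thalamus saline library 3 or RVM saline library 1 or 3, and Fcgr3a without thalamus saline library 2 or RVM saline library 1. With every library rescaled to a common FPKM total, the median log2 difference of all genes shifted by 0.16 and 2 calls were left. Relative to that median the difference was -0.64 for Tyrobp and -0.23 for Fcer1g after rescaling, against -0.66 and -0.26 as deposited. The same rescaling moved the median of all genes by 0.14 in the CFA comparison of the thalamus, where the change of Trem2 relative to the median was 1.39 after it and 1.38 as deposited.

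Other genes of the pathway and of myeloid cells were followed through 8 lists, called pathway lists below, of which 96 genes were tested in the thalamus. Homeostatic microglia genes (5 of 11 higher) and myeloid transcription factors (7 of 10 higher) are among them and are not members of the pathway. Of the 96 genes 55 rose with CFA and 0 fell, against 3.84% of all genes called higher and 0.272% called lower. The number of all genes called lower depended on the model, at 40 here, 210 with library quality weights, 583 with a replicate block and 817 in a single model of all 12 libraries. Without CFA libraries 1 and 2 together 10 of them passed. The filter is a mean over CFA and saline libraries, so genes near 0 in saline were tested through their CFA level, and both the counts and the list medians below lean towards rises. With no filter 53 of 118 list genes rose and 0 fell.

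Other receptors that signal through TYROBP, the FcR gamma chain or an ITAM-type motif of their own rose in 5 of the 7 cases tested, of 16 in the table, with a median log2 change of 2.04. Clec7a, the beta-glucan receptor dectin-1, was at 9.45 ± 2.35 FPKM in thalamus CFA and 0.0852 ± 0.0339 FPKM in thalamus saline (log2 3.24, limma adjusted p = 0.000646). Itgb2, the integrin beta chain of leukocytes, was at 13.5 ± 2.31 and 2.51 ± 0.405 FPKM (log2 2.04), the adapter Hcst (DAP10) had a log2 change of 2.35 and Nfam1, which carries its own ITAM, had 1.502.

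Inhibitory receptors rose alongside, in 6 of 9 cases with a median of 1.83. The lectin receptor Clec12a was at 21.3 ± 6.89 FPKM in thalamus CFA and 0.649 ± 0.0617 FPKM in thalamus saline (log2 3.71, limma adjusted p = 0.000795), and log2 changes were 3.57 for Lilrb4, 2.01 for the sialic acid receptor gene Cd33 and 1.83 for Cd300a. The signal regulatory protein gene Sirpa, at 55 ± 2.73 and 53.4 ± 8.03 FPKM, did not pass.

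Downstream kinases and adapters rose in 15 of 26 cases (median 1.01). The Src family kinase Fgr was at 6.12 ± 0.4 FPKM in thalamus CFA and 0.743 ± 0.0687 FPKM in thalamus saline (log2 2.03, limma adjusted p = 0.000703), with log2 changes of 3.002 for the small GTPase gene Rac2 and 2.09 for the adapter Lat2. Negative regulators rose in 8 of 15 cases (median 0.58). Ptpn6, the phosphatase SHP-1, was at 16.3 ± 2.11 and 2.66 ± 0.159 FPKM in the same groups (log2 2.23, limma adjusted p = 0.000583), and the log2 changes were 2.25 for the phosphatase Ptprc (CD45), which can also activate Src family kinases, and 1.66 for Sla. Inpp5d, the lipid phosphatase SHIP-1 that Fcgr2b recruits, had 0.93 and lost its call without saline library 2 or 3.

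The list of TREM2 ligands, sheddases and partners had the lowest median of the 8 lists, with 2 of 10 genes higher (median 0.33). These were the cytokine gene Tgfb1 (log2 1.57) and Ms4a6a (1.63), which the list holds only as partners in a broad sense. The lipoprotein gene Apoe, a TREM2 ligand, was at 2270 ± 122 FPKM in thalamus CFA and 1930 ± 135 FPKM in thalamus saline and did not pass. Neither did the sheddase genes Adam10 (log2 -0.004) and Adam17 (0.423). Genes that bind or form immunoglobulin rose in 7 of 8 cases (median 2.19). C1qb, a chain of the complement protein that binds antibody, was at 239 ± 44.4 and 32.6 ± 0.515 FPKM in the same groups (log2 2.82, limma adjusted p = 0.000541), with 3.14 for C1qc, 2.66 for C1qa and 2.11 for the immunoglobulin heavy chain gene Ighm.

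Myeloid transcription factors rose in 7 of 10 cases (median 1.59). Spi1, which encodes PU.1, was at 15.7 ± 1.91 FPKM in thalamus CFA and 2.9 ± 0.375 FPKM in thalamus saline (log2 2.09, limma adjusted p = 0.000764). Log2 changes were 2.94 for Irf8 and 1.97 for Cebpb. The 3 promoters printed above hold a PU.1 core each, and whether PU.1 binds there was not tested.

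In the RVM 0 of 88 tested genes of the lists passed by limma, with the full set of libraries, and list medians ran from -0.04 for TREM2 ligands and partners to 1.17 for myeloid transcription factors. Ptpn6 was at 11.9 ± 6.1 FPKM in RVM CFA and 3.16 ± 0.574 FPKM in RVM saline (log2 1.496), and C1qb at 180 ± 99 and 28.9 ± 3.82 FPKM in the same groups (log2 2.38, limma adjusted p = 0.242 for each). Without RVM CFA library 2 the lists held 40 calls, all higher, where 2.78% of 14264 genes were called higher. Among them were 11 of 26 kinases and adapters and 4 of 5 genes of the coupled receptor list. Library 2 held the lowest sum of the RVM CFA libraries for each pathway list. Leaving it out therefore raises the CFA means by construction, and these calls are no independent support.

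**Figure D5:**
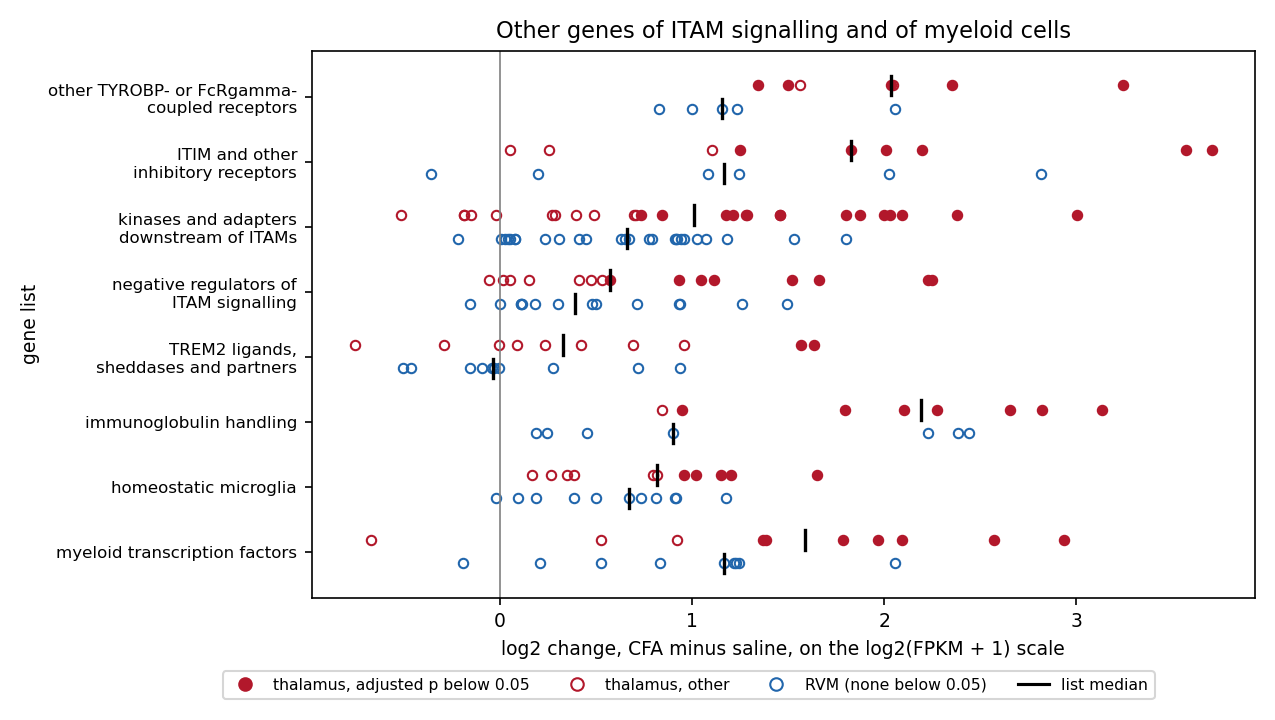
Log2 change between CFA and saline (log2(FPKM + 1) scale) of each tested gene of 8 lists, in the thalamus (red, filled where the adjusted p is below 0.05) and in the RVM (blue), with a black bar at the list median. Thalamus medians run from 0.33 for TREM2 ligands, sheddases and partners to 2.19 for immunoglobulin handling, and no RVM point is filled.

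Among all other genes, those whose pattern over the 12 libraries was most like that of the 7 were named by the root mean square difference of standardized log2 values from the mean profile of the 7, among 14671 genes. They included Plek (0.086), Tlr2 (0.093), Ptprc (0.101), Laptm5 (0.109), Cd53 (0.114), Csf1r (0.126) and Tbxas1 (0.131). Among the 7 themselves the difference from their mean ran from 0.092 for Fcgr1a to 0.254 for Syk, with 0.203 for Trem2. These are descriptions over libraries that share groups and carry no test.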

How the data were processed

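Total RNA libraries of rat thalamus and RVM were made with an Illumina TruSeq kit, per the labels' protocols. The authors deposited FPKM values with gene length and coordinates for 34525 genes. The aligner, counting tool and build are not given in the sources used. FPKM times gene length gave whole multiples of a per-library step for 100% of values (tolerance 0.01 reads), which recovered 14.94 to 19.24 M reads per library. The deposited scaling differed from these totals by a factor of 0.9335 to 1.168, so a further between-library scaling is in the values.

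Groups came from the tissue and treatment labels. Log2(FPKM + 1) values were fitted with limma 3.58.1 (R 4.3.3, empirical Bayes with trend). A gene was tested where its FPKM averaged 1 or more over the libraries of the fit (in each region for the difference of CFA effects), and called where its p, adjusted by Benjamini and Hochberg over all genes tested, was below 0.05. Ratios were set against each other with two-sided exact permutation tests in Python 3.11.15 and scipy 1.17.1. Fits of CFA against saline in each region were also run on simulated reads with a fixed spread and no outlying library. That setting differs from the RVM CFA libraries, so it does not show how the fits behave there. The other fits were not simulated. Members, the 8 pathway lists and the 15 cell type lists were chosen with earlier results of these data known. Of 263 list symbols 247 matched the table and 16 were not analysed here. Named were all 7 members, up to 4 called genes per list with the smallest p (otherwise 2), and the 8 genes most like the members, except some genes that are not reported here. Tmem119, Sirpa and Apoe, and the single marker genes of cell types, were named after their values were seen. Alternatives were a pseudocount of 0.1, no filter, a filter at 5 FPKM, 3 other scalings, robust empirical Bayes, library quality weights, a replicate block, a single model of 12 libraries, limma-voom on recovered reads, and leaving out libraries. Applying them to the pathway lists, and the list counts without RVM CFA library 2, were added after seeing the data.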

Additional observations from a re-analysis of the deposited data

How the results depend on the processing

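With CFA in the thalamus the number of members called was 7 under the other settings (6 of 6 testable members with a filter at 5 FPKM), 6 to 7 on leaving out 1 library, and 4 without CFA libraries 1 and 2 together. The number of genes called in all was 605, but 298 with a filter at 5 FPKM, 1010 with library quality weights, 1873 in 1 model of all 12 libraries, 66 without CFA libraries 1 and 2 together, and 309 to 547 without 1 library. For the pathway lists it was 55, but 28 with a filter at 5 FPKM (fewer genes tested), 10 without CFA libraries 1 and 2 together, and 38 to 49 without 1 library.

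In the RVM 0 members were called under every setting apart from those without 1 library (0 to 6), 0 genes in all except 1 with no filter and 0 to 484 without 1 library, and 0 list genes except 0 to 40 without 1 library. For the difference between regions 0 members were called throughout, and 0 genes except 11 with no filter and 0 to 15 without 1 library. Members called between the saline regions numbered 4, but 2 with a filter at 5 FPKM, 2 after rescaling to the same total, 0 in 1 model of all 12 libraries, and 1 to 3 without 1 library. Syk between the saline regions turned to a log2 difference of 0.031 after rescaling, and ran from -0.137 without RVM saline library 3 to 0.049 without RVM saline library 1. Causes were not tested.

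A replicate block gave 1338 called genes in the thalamus and 7 members as before, and Fcgr2b lost its call between the saline regions (limma adjusted p = 0.0787). The block ended no other member's call. The labels do not say that same-numbered libraries pair, so no pairing was assumed. Deviations of same-numbered libraries correlated across genes at 0.358, 0.057 and 0.267 in the thalamus and at -0.027, 0.001 and -0.008 in the RVM. Those of libraries with different numbers ran from -0.45 to 0.316 in the thalamus and from -0.013 to 0.021 in the RVM. These values do not settle whether the samples pair. Depth limits the lowest members, with 28 reads for Fcgr1a in 1 thalamus saline library.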
